A study of Mus musculus with 8 samples.

Results

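Cubn, Amn, Lrp2, Dab2, Lrpap1, Lgmn and Ctsh, 7 genes of the endocytic machinery of visceral endoderm, were followed through 8 RNA-seq libraries of mouse epiblast. They were taken by symbol after the Ensembl identifiers of the count table had been matched to gene names, and all 7 were found among its 52636 identifiers. All 7 were also among the 18321 genes that had enough counts to be tested. The visceral endoderm is the polarised epithelium that wraps the epiblast and takes up maternal nutrients before the placenta works. Cubilin, held at the apical membrane by amnionless, and megalin bind many ligands there. The adaptor Dab2 links the tails of megalin and amnionless to clathrin, and the cargo goes to lysosomes where proteases such as legumain and cathepsin H cut it. Cubn, Amn and Dab2 are commonly read as markers of this endoderm, whereas Lrpap1 and the proteases are made by many cell types.

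All embryos were at embryonic day 5.5 and carried the genotype Sox2Cre;CRAFR26, in the controls as well as in the treated groups. Sox2Cre is a Cre transgene active in the epiblast, and CRAFR26 is the line through which 4-hydroxytamoxifen (4OHT) induces ERK, the last kinase of the MAPK cascade. No group lacked these alleles, so an effect of 4OHT by itself and an effect of ERK cannot be told apart. The 4 groups were vehicle (ethanol) or 250 nM 4OHT in clone 4 and in clone 8 of the line, with 2 libraries each. The labels give 4 h of exposure in both conditions, although the titles and the time label of the vehicle libraries read 0 h. Each library came from a pool of 10 epiblasts, freed of their extraembryonic layers by microdissection, and from 7 ng of RNA. The labels do not say whether the pools of a group came from separate litters, so p-values measure the spread between these pools. Because the libraries are bulk RNA, fewer cells of a type and less RNA per cell cannot be told apart.

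The vehicle libraries held 33.3 to 38.0 M counts (M, mega) and the 4OHT libraries 56.4 to 72.5 M. The 9 listed epiblast markers, among them Pou5f1, were detected in every library and summed to 4574 to 5748 CPM (counts per 1 M counts of the scaled library). Egr1, an immediate early target of ERK, was at 5.77 to 18.2 CPM in vehicle. With 4OHT, Egr1 was at 55.4 and 75.9 CPM in replicates 1 and 2 of clone 4. In replicates 1 and 2 of 4OHT clone 8 it was at 74.7 and 379 CPM. Mitochondrial transcripts made up 1.19% and 1.35% of counts in the 4OHT libraries of clone 8 and 0.205% to 0.619% in the other 6. Depth went with the treatment in both clones, and the 2 cannot be told apart. The 7 endocytic genes together took between 0.0679% of counts (exact 95% binomial interval 0.0672% to 0.0685%) in replicate 1 of 4OHT clone 8 and 0.308% (0.307% to 0.309%) in replicate 2 of 4OHT clone 4. Such intervals cover counting error only.

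In mouse build mm10 with GENCODE M21, Cubn and Lrp2 are the longest genes of the set and Amn is the shortest. Cubn (ENSMUSG00000026726) spans chr2:13276338-13491813 on the minus strand with 66 merged exons, and Lrp2 (ENSMUSG00000027070) spans chr2:69424340-69586065 on the minus strand with 80. Amn (ENSMUSG00000021278), at chr12:111271095-111276426 on the plus strand, has 11 exons in 5332 bases. Dab2 (ENSMUSG00000022150) lies at chr15:6299788-6440712 on the plus strand with 22 exons, and Lrpap1 (ENSMUSG00000029103) at chr5:35091501-35105766 on the minus strand with 9. The proteases Lgmn (ENSMUSG00000021190, chr12:102394084-102439813, minus strand) and Ctsh (ENSMUSG00000032359, chr9:90054152-90076089, plus strand) have 14 exons each. Exons of Cubn share 368 bases (2.46% of its exonic length) with Gm13270 on the other strand, and exons of Dab2 share 211 bases (2.87%) with the processed pseudogene Gm18888 on the other strand. Whether the counting used strand is not given in the sources used here, so reads in these short stretches are uncertain.

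Promoter windows of 300 bases, 250 before to 50 after a start site, were read from RefSeq's table for GRCm38.p6, the same build. It held 8 windows for 6 of the 7 genes. The windows of Cubn and Amn are shown because their products form 1 receptor and their profiles over the libraries were close, that of Lrp2 because its RNA varied least, and the upstream window of Dab2 because it holds a GATA match. Capitals mark that match, TTATCT, which is AGATAA read on the other strand, beginning at base 15 from the start site.
Cubn, chr2:13491827-13492126, minus strand: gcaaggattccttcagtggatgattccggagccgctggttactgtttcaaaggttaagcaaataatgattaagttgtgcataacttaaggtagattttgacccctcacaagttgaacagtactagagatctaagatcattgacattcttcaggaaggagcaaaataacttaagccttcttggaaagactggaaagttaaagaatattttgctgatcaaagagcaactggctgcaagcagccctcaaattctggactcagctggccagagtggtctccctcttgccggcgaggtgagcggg
Amn, chr12:111270846-111271145, plus strand: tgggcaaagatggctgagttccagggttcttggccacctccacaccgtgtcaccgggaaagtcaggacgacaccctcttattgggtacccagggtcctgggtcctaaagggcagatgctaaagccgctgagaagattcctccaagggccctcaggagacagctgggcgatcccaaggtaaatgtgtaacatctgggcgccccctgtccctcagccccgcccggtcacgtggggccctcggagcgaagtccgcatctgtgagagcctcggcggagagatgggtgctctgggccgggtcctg
Lrp2, chr2:69585980-69586279, minus strand: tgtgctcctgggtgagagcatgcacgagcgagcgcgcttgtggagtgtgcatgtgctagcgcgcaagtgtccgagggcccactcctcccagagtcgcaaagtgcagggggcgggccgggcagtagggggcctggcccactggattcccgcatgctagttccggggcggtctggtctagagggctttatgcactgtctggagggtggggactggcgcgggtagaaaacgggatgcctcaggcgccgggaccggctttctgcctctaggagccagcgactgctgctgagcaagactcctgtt
Dab2 upstream window, chr15:6299539-6299838, plus strand: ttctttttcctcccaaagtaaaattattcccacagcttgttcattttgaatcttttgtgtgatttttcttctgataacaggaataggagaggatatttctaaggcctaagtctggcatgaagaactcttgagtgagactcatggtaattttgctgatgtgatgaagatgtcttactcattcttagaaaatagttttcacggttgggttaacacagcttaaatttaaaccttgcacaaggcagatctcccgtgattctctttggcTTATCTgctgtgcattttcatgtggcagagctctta

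Base composition differed among these windows. Cubn had 44.3% GC and 5 CpG dinucleotides and the upstream window of Dab2 had 37.7% and 2, against a median of 52.7% and 7 over the 32851 windows of the table. Amn had 62.3% and 15, and Lrp2 had 65% and 20. The other windows were GC-rich in Lrpap1 (61.3%) and 1 of 2 Lgmn windows (61%), and the second Lgmn window had 48%. Of 6 motifs searched on both strands, AGATAA, the letters of GATA factors, occurred in 11.2% of all windows and among the 8 matched the upstream Dab2 window alone. GTTAAT, the core letters of HNF1 sites and found in 7.1% of all windows, matched the downstream Dab2 window (chr15:6386498-6386797), beginning at base -65 from the start site, and no other of the 8. TGTTTAC (FOXA, 3.65%), CAAAGTCCA (HNF4, 0.475%), TGACTCA (AP-1, 5.2%) and CCGGAAGT (ETS, 3.89%) matched none of the 8. A match is a stretch of letters and not a measured binding site.

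Per kilobase of exon, legumain RNA had the highest level of the set. The mean log2 RPKM (CPM per kilobase of merged exon) over the 8 libraries was 6.73 for Lgmn, 6.26 for Amn, 6.03 for Lrpap1, 5.60 for Dab2, 4.55 for Ctsh, 2.29 for Cubn and 2.13 for Lrp2. Lgmn was above Amn in 8 of 8 libraries and Ctsh above Cubn in 8 of 8. The order of Amn and Lrpap1 held in 5 of 8 libraries and that of Cubn and Lrp2 in 5 of 8, and their mean differences (0.22 ± 0.54 and 0.16 ± 0.69 on the log2 scale, SD, n = 8) were below their spread. Lrpap1 was above Dab2 in 6 of 8 libraries and Dab2 above Ctsh in 7 of 8. The receptor partners were far apart on this scale, with a mean of 93.2 RPKM for Amn and 6.03 RPKM for Cubn, and the scale takes the union of annotated exons as the length of each transcript.

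The receptor subunits Cubn and Amn were at their highest in 4OHT clone 4 and among their lowest in vehicle clone 4. Cubn, the ligand-binding subunit, was at 39.5 and 30.1 CPM in vehicle clone 4 and at 143 and 205 CPM in 4OHT clone 4. In clone 8 it was at 98.6 and 87.0 CPM in vehicle and at 32.9 and 84.0 CPM in 4OHT. So 4OHT libraries lay above vehicle in clone 4 and below it in clone 8, without overlap in either. The log2 fold change of Cubn for 4OHT was 2.32 (SE 0.38, edgeR adjusted p = 0.0658) in clone 4 and -0.67 (SE 0.36, edgeR adjusted p = 0.234) in clone 8, and neither passed the threshold of 0.05.

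Amn, the membrane anchor without which cubilin is not carried to the cell surface, had the same order of groups. It was at 85.0 and 60.1 CPM in vehicle clone 4, at 274 and 339 CPM in 4OHT clone 4, at 217 and 216 CPM in vehicle clone 8, and at 54.5 and 128 CPM in 4OHT clone 8. The 2 vehicle libraries of clone 8 were nearly equal, and the 2 treated libraries of clone 8 differed by a ratio of 2.35. Amn fell with 4OHT in clone 8, with a log2 fold change of -1.25 (SE 0.33, edgeR adjusted p = 0.0343), a 2.38-fold decrease. In clone 4 its log2 fold change was 2.08 (SE 0.34, edgeR adjusted p = 0.0658).

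Lrp2, which encodes megalin, the large LDL receptor family member that works with cubilin, varied least of the 7. Its level was 59.1 and 45.2 CPM in vehicle clone 4, 85.0 and 107 CPM in 4OHT clone 4, 81.9 and 80.0 CPM in vehicle clone 8, and 67.7 and 76.6 CPM in 4OHT clone 8. The groups did not overlap within either clone, but the whole span from the lowest to the highest library was 2.37-fold, against 6.81-fold for Cubn. The log2 fold change for 4OHT was 0.88 (SE 0.17, edgeR adjusted p = 0.0942) in clone 4 and -0.17 (SE 0.17, edgeR adjusted p = 0.531) in clone 8.

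Dab2, the clathrin adaptor that binds the tails of megalin and amnionless, had the widest span, 8.45-fold. It was at 272 and 187 CPM in vehicle clone 4 and at 896 and 1211 CPM in 4OHT clone 4. In clone 8 it was at 233 and 364 CPM in vehicle and at 143 and 391 CPM in 4OHT, and these ranges overlapped. Its log2 fold change was 2.20 (SE 0.42, edgeR adjusted p = 0.0942) in clone 4 and -0.16 (SE 0.41, edgeR adjusted p = 0.816) in clone 8. Of the 7 genes, Dab2 alone overlapped between treatments in clone 8 and alone overlapped between the vehicle libraries of the clones.

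Lrpap1, the chaperone (RAP) that keeps LDL receptor family proteins from binding ligand in the endoplasmic reticulum, had a profile nearer to those of Lgmn and Lrp2 than to that of Cubn. It was at 238 and 191 CPM in vehicle clone 4, 416 and 524 CPM in 4OHT clone 4, 263 and 301 CPM in vehicle clone 8, and 159 and 226 CPM in 4OHT clone 8. Its treated libraries of clone 4 were above all 4 vehicle libraries, and those of clone 8 were below both vehicle libraries of their own clone. The log2 fold change for 4OHT was 1.13 (SE 0.19, edgeR adjusted p = 0.0658) in clone 4 and -0.55 (SE 0.19, edgeR adjusted p = 0.0771) in clone 8. The root mean square difference of its centred log2 CPM profile was 0.35 from that of Lrp2, 0.24 from that of Lgmn and 0.51 from that of Cubn.

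The lysosomal proteases had the group order of the receptors. Lgmn, the asparaginyl endopeptidase legumain, was at 173 and 137 CPM in vehicle clone 4, 418 and 510 CPM in 4OHT clone 4, 292 and 302 CPM in vehicle clone 8, and 127 and 244 CPM in 4OHT clone 8. Ctsh, the cysteine protease cathepsin H, was at 68.4 and 49.7 CPM, 198 and 207 CPM, 152 and 155 CPM, and 47.0 and 98.0 CPM in the same groups. Treated libraries were above vehicle in clone 4 and below it in clone 8 for both genes, without overlap. Ctsh fell with 4OHT in clone 8 by 1.08 on the log2 scale (SE 0.29, edgeR adjusted p = 0.0344), and Lgmn had a log2 fold change of -0.68 there (SE 0.26, edgeR adjusted p = 0.102). In clone 4 the log2 fold changes were 1.78 for Ctsh (SE 0.29) and 1.58 for Lgmn (SE 0.27), each with an edgeR adjusted p of 0.0658.

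**Figure D1:**
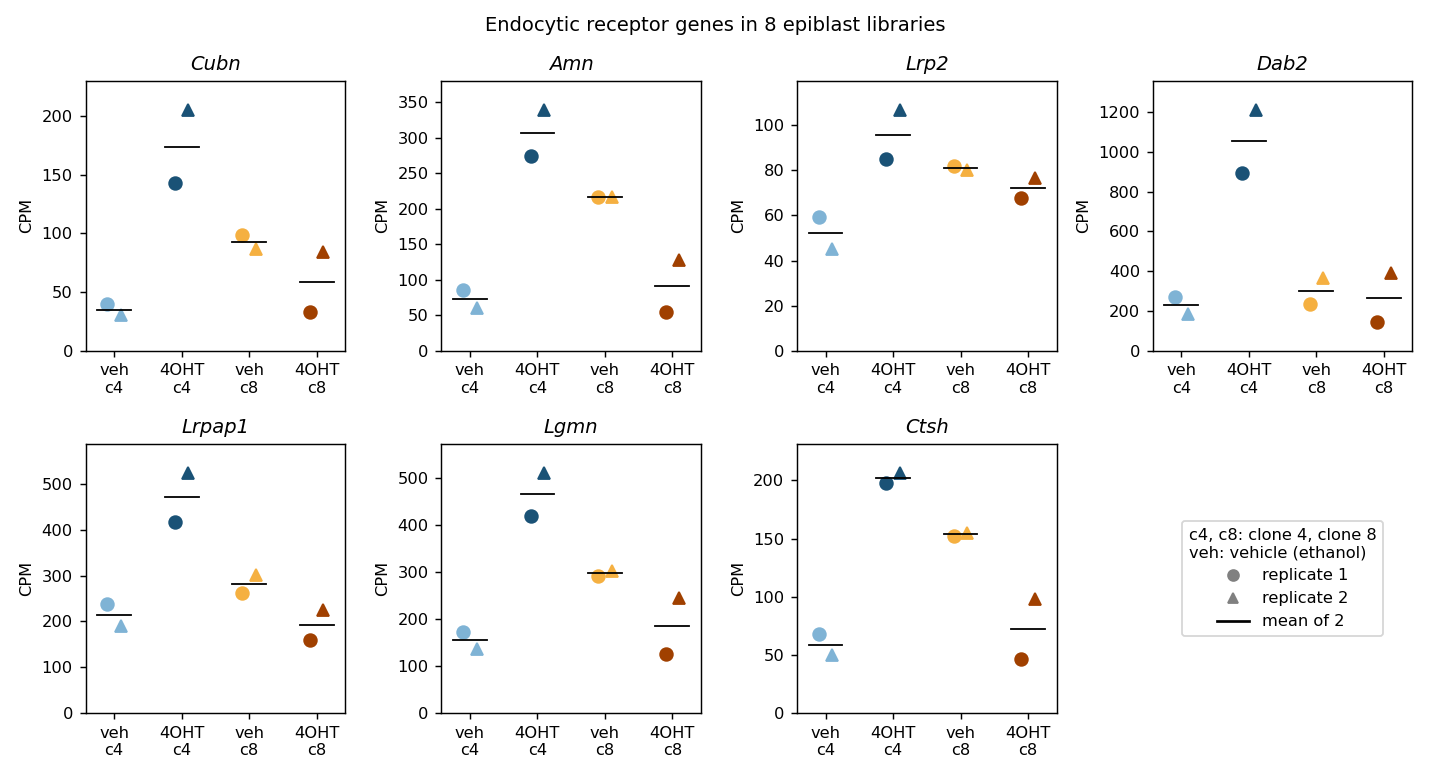
Level of each of the 7 genes in each of the 8 libraries (CPM, linear axis from 0), with 1 point per library, replicates as circles and triangles, and a line at the mean of each group of 2. The 4OHT libraries of clone 4 are the highest group for all 7 genes, and the 2 treated libraries of clone 8 lie far apart for Cubn, Amn, Dab2 and Ctsh.

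Counted over the set, all 7 genes had a log2 fold change above 0 in clone 4, as did 49.3% of all tested genes. However, 0 of 7 passed at an adjusted p under 0.05 by edgeR, where 0.0382% of all tested genes were called, and 7 of 7 were higher at an unadjusted p under 0.05, as were 6.22% of all genes. DESeq2 called 7 of 7 in the same comparison, where it called 468 genes in all against 7 by edgeR. Treated and vehicle libraries did not overlap, with treated higher, for 7 of 7 genes and for 23.7% of all genes. The median log2 fold change was 1.78 over the 7 and -0.0047 over all tested genes.

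In clone 8 all 7 genes had a log2 fold change below 0, while 53.7% of all tested genes were above 0. Amn and Ctsh were lower by the test, 2 of 7, where 8.6% of all tested genes were called lower, and none of the 7 was called higher. Libraries did not overlap, with treated lower, for 6 of 7 genes and for 28.3% of all genes. The median log2 fold change was -0.67 over the 7 and 0.07 over all genes. Both calls were lost in most fits with 1 library left out, where calls over all tested genes changed too. A clone 4 library enters this comparison only through the estimate of spread shared by the 4 groups, the filter and the scaling. Without replicate 1 of 4OHT clone 8, the log2 fold changes of Amn and Ctsh were -0.76 and -0.65. Without replicate 2 they were -2.0 and -1.71. These 2 libraries are also those with the high mitochondrial share given above, whose part in the result was not tested. In the same comparison 4 of the 9 epiblast markers fell as well, Pou5f1 by 0.62, Sox2 by 0.79, Pou3f1 by 0.67 and Utf1 by 0.44 on the log2 scale, with edgeR adjusted p-values of 0.0178 to 0.0320.

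The responses of the clones differed for 5 of the 7 genes, Cubn, Amn, Lrpap1, Lgmn and Ctsh, each with a lower response in clone 8. Among all tested genes, 1.75% were called in that direction, and 52.6% had a difference above 0. The difference of the log2 fold changes (clone 8 minus clone 4) was -3.33 for Amn (SE 0.47, edgeR adjusted p = 0.0232), -2.99 for Cubn (SE 0.52, edgeR adjusted p = 0.0331) and -2.86 for Ctsh (SE 0.41, edgeR adjusted p = 0.0232). These were the 2 receptor subunits and a protease. Lgmn followed with -2.26 (SE 0.37, edgeR adjusted p = 0.0290) and Lrpap1 with -1.68 (SE 0.27, edgeR adjusted p = 0.0270). For Dab2 the difference was -2.36 (SE 0.58, edgeR adjusted p = 0.0655) and for Lrp2 -1.04 (SE 0.24, edgeR adjusted p = 0.0539), and these did not pass. Groups did not overlap, with treated higher in clone 4 and lower in clone 8, for 6 of the 7 genes and for 6.74% of all tested genes. The calls depend on single libraries. With 1 library left out, most fits lost these calls, and the calls over all tested genes changed as well. Every one of these fits kept all 7 differences below 0, from -0.87 to -4.08.

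**Figure D2:**
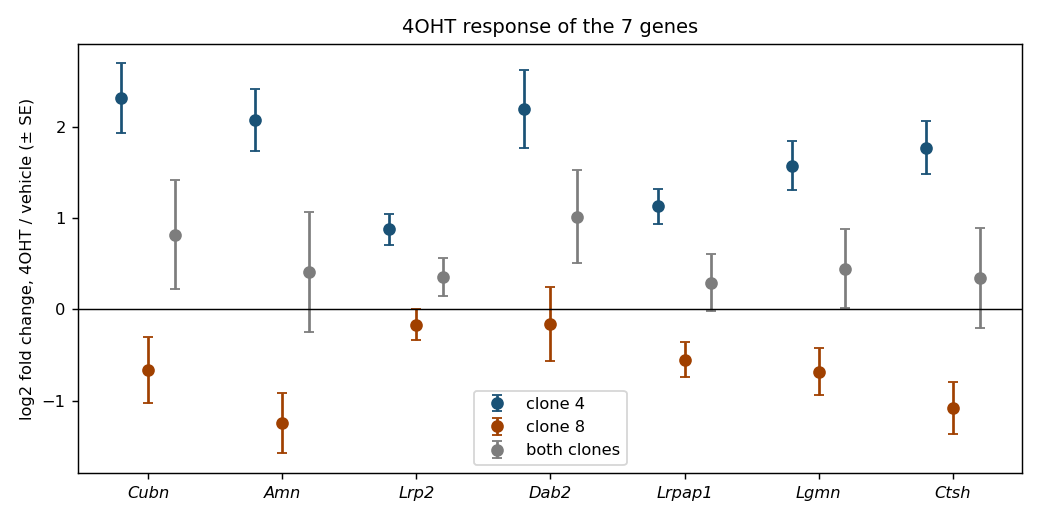
Log2 fold change of 4OHT against vehicle for the 7 genes in clone 4, in clone 8 and in the fit of both clones, with bars of 1 standard error. The values of clone 4 run from 0.88 (Lrp2) to 2.32 (Cubn) and those of clone 8 from -1.25 (Amn) to -0.16 (Dab2), and the values of both clones lie between them.

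Taking both clones in 1 additive fit, no gene of the set passed. By edgeR 0 of 7 were called, where 0.00546% of all genes were, 0 of 7 had an unadjusted p under 0.05 against 16.9% of all genes, and DESeq2 called 0 of 7 while calling 1053 genes in all. The log2 fold changes were all above 0, as were 54.2% of those of all genes, and ran from 0.29 for Lrpap1 to 1.02 for Dab2 (SE 0.51, edgeR adjusted p = 0.338). With 4 libraries a condition, treated and vehicle ranges overlapped for 7 of 7 genes, and treated libraries were all higher for 3.42% of all genes. Cubn, for example, had 63.8 ± 34.0 CPM in vehicle and 116 ± 74.4 CPM in 4OHT (SD, n = 4).

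The clones also differed without 4OHT, and in the opposite sense. In vehicle, Cubn, Amn and Ctsh were higher in clone 8 than in clone 4 by the test, 3 of 7, where 4.06% of all genes were called higher. Their log2 differences were 1.41 for Cubn (SE 0.37, edgeR adjusted p = 0.0491), 1.58 for Amn (SE 0.34, edgeR adjusted p = 0.0291) and 1.38 for Ctsh (SE 0.29, edgeR adjusted p = 0.0283). Lgmn at 0.94 (edgeR adjusted p = 0.0582), Lrp2 at 0.63 (0.0513), Lrpap1 at 0.40 (0.227) and Dab2 at 0.38 (0.629) did not pass. The vehicle libraries of clone 8 were above those of clone 4 without overlap for 6 of 7 genes, against 29.7% of all genes. The 3 calls were lost in most fits with 1 library left out, where calls over all tested genes changed too. A 4OHT library enters this comparison only through the shared estimate of spread, the filter and the scaling. In these fits the log2 differences ran from 1.24 to 1.63 for Cubn, 1.36 to 1.86 for Amn and 1.18 to 1.64 for Ctsh.

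With 4OHT the order was turned, and clone 8 was below clone 4 in all 7 genes. The libraries did not overlap for 7 of 7 genes, against 24.2% of all genes, but only Lrpap1 passed (log2 difference -1.29, SE 0.19, edgeR adjusted p = 0.0481), 1 of 7 where 0.142% of all genes were called lower. The other differences ran from -0.41 for Lrp2 (edgeR adjusted p = 0.245) to -1.98 for Dab2 (edgeR adjusted p = 0.0759). The call of Lrpap1 was lost in most fits with 1 library left out, where calls over all tested genes changed too. A vehicle library enters this comparison only through the shared estimate of spread, the filter and the scaling. In these fits the log2 difference of Lrpap1 ran from -1.06 to -1.57. These clone comparisons use the same libraries as the responses within clones and are not separate evidence.

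Replicates of 1 group, the treated libraries of clone 8, stood apart from each other in this set. Replicate 2 was above replicate 1 by 1.45 on the log2 scale for Dab2, 1.35 for Cubn, 1.23 for Amn and 1.06 for Ctsh. So 4 of 7 genes differed by at least 1 log2 unit, as did 18.5% of all tested genes in that pair. Lgmn differed by 0.95, Lrpap1 by 0.50 and Lrp2 by 0.18. In vehicle clone 4, vehicle clone 8 and 4OHT clone 4, 0 of 7 genes differed by 1 log2 unit (10.8%, 12.2% and 11.7% of all genes), and the widest gap was 0.65 for Dab2 in vehicle clone 8. In vehicle clone 4, replicate 2 was below replicate 1 for all 7, with differences from -0.32 to -0.54.

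Markers of visceral endoderm outside the set were high and low in the same groups. The summed level of 17 listed markers, which share no gene with the 7, was 365 to 627 CPM in vehicle clone 4, 1609 to 1682 CPM in 4OHT clone 4, 1561 to 1701 CPM in vehicle clone 8 and 320 to 874 CPM in 4OHT clone 8. For the 7 genes 4OHT clone 4 was the highest group, whereas the marker sums of 4OHT clone 4 and vehicle clone 8 overlapped. Between 16 and 17 of the 17 were detected in each library, and only Apoc2 was at 0 in any. The markers included the secreted proteins Apoa1, highest in CPM (which are not scaled by length) at a mean of 348, and Ttr, and the endoderm transcription factors Hnf4a, Gata4 and Sox17. In 4OHT clone 8, replicate 1 held 320 CPM and replicate 2 held 874 CPM, the same direction as for the 7 genes.

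Of the 16 markers with enough counts, 0 passed in clone 4 by edgeR, 15 were higher at an unadjusted p under 0.05, and 7 were called by DESeq2. The median log2 fold change was 1.79, with 16 of 16 above 0. In clone 8, 6 of 16 fell with 4OHT (median -1.27), among them Spink1 (-1.80), Apom (-1.54) and Hnf4a (-1.80). The difference of the responses was called for 10 of 16, all lower in clone 8 (median -3.07), with Hnf4a at -4.39 and Apom at -3.53. In vehicle, 6 of 16 were higher in clone 8 (median 1.59). How far the amount of visceral endoderm in a pool accounts for the differences in the 7 genes was not tested.

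Set against the mean log2 CPM of these 16 markers in the same library, the genes differed in how closely they kept to it. The marker mean itself spanned 2.52 log2 units over the 8 libraries. Amn minus the marker mean stayed between 2.21 and 2.72 and Ctsh minus the marker mean between 1.85 and 2.45. Cubn stayed between 1.10 and 1.97. The differences to the marker mean were wider for Lgmn (2.81 to 3.91), Lrpap1 (2.65 to 4.39), Lrp2 (0.75 to 2.69) and Dab2 (2.48 to 4.54). Relative to the markers Amn and Ctsh thus varied over 0.51 and 0.60 log2 units, while their own levels spanned 2.64 and 2.13. Lrp2 spanned 1.24 log2 units itself and 1.95 relative to the markers.

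**Figure D3:**
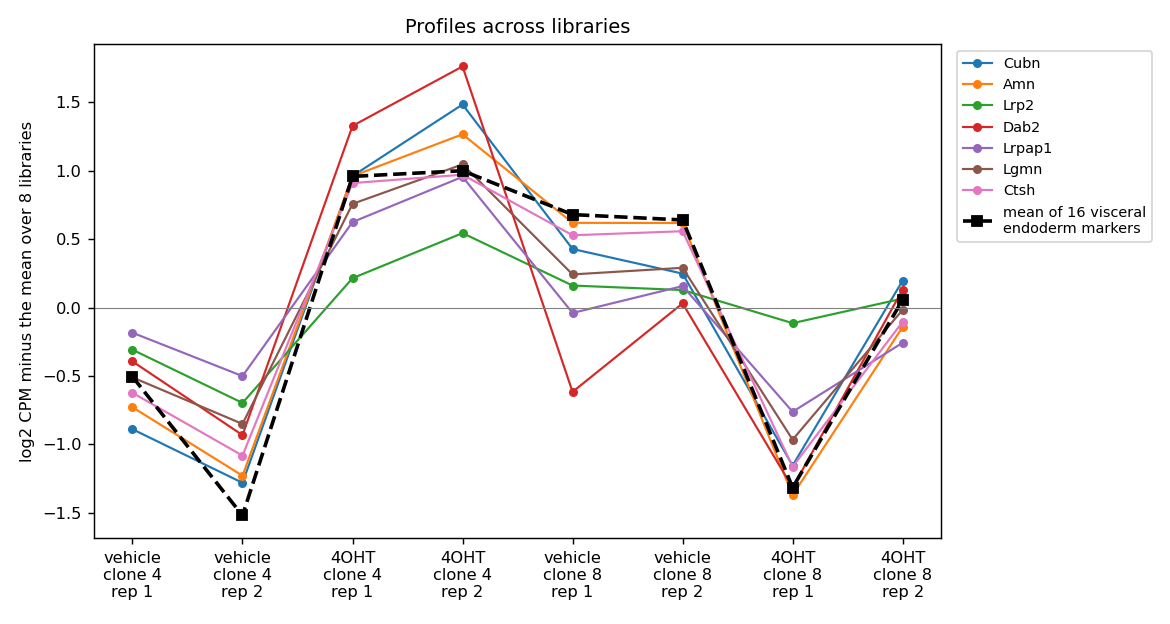
Log2 CPM of each of the 7 genes in the 8 libraries after subtraction of its own mean, with the mean of the 16 tested visceral endoderm markers for comparison. The lines of Amn and Ctsh lie nearest to that of the markers, Lrp2 is flatter, and Dab2 is the highest line in 4OHT clone 4 and the lowest in vehicle clone 8.

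Markers of other tissues that border the epiblast differed in how far their order followed that of the 7 genes. The 12 extraembryonic ectoderm markers, among them Elf5 and Esrrb, summed to 507 to 551 CPM in vehicle clone 8 and to 827 to 1271 CPM in the other groups, and all 12 were detected in every library, with Rhox5 the highest at a mean of 458 CPM. Of them, 8 rose with 4OHT in clone 8, with Esrrb the lowest in p at a log2 fold change of 2.04, where Amn and Ctsh fell. Of all 18321 tested genes, edgeR called 3041 in that comparison in either direction, 1576 of them lower. The 5 parietal endoderm markers summed to 13.5 to 22.6 CPM in vehicle clone 4, 67.9 to 88.2 CPM in 4OHT clone 4, 29.1 to 30.8 CPM in vehicle clone 8 and 16.9 to 53.6 CPM in 4OHT clone 8. As for the 7 genes, 4OHT clone 4 was their highest group, and replicate 2 of 4OHT clone 8 lay above replicate 1. Their difference of the responses was below 0 for 3 and above 0 for 2 (median -1.33), and 0 passed. Sox7 had the highest mean CPM of them, 16.2, and by edgeR 0 of the 5 passed in either clone, with 3 and 1 higher at an unadjusted p under 0.05 in clone 4 and clone 8 and 1 called by DESeq2 in each. Markers of decidua, blood and endothelium summed to 8.49 to 37.8 CPM. The part of these tissues in the results of the 7 genes was not tested.

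The genes with the most similar profiles were found by the root mean square difference of centred log2 CPM over the 8 libraries, among 9159 genes above the median level. Nearest to Amn were Timd2 (0.08), Ctsh (0.15) and Apom (0.17), the last a listed marker of visceral endoderm. Cubn was nearest to Slc39a8 (0.19), a metal transporter, then Amn and 4933402E13Rik (both 0.23). Of the proteases, Ctsh was nearest to Folr1 (0.12), a folate receptor, Gipc2 (0.14) and Timd2 (0.15), and Lgmn to Tcn2 (0.09), the carrier of cobalamin, Ctsz (0.13), which encodes cathepsin Z, and Serpinh1 (0.15). Lrpap1 was nearest to Rcan1 (0.08), Oat and Renbp (both 0.13), and Dab2 to AI464131 (0.18), Dpp4 (0.19) and Mfsd12 (0.20). Lrp2 lay near Tmem9b (0.14), Gnptab (0.15) and Neu1 (0.16). Profiles like that of Dab2 were few, with 6 genes within 0.3, while 14 were as near to Cubn, 21 to Amn, 30 to Ctsh, 55 to Lgmn, 108 to Lrpap1 and 473 to the flat Lrp2.

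Among 15 other receptors of the LDL receptor family and of endocytic cargo, few were called. In clone 4, 0 passed by edgeR, with 5 higher and 1 lower at an unadjusted p under 0.05 and 3 called by DESeq2, and the median log2 fold change was 0.12. In clone 8, Fcgrt, the neonatal Fc receptor, fell by 1.77, Sort1, a sorting receptor, fell by 1.34, and Igf2r, the cation-independent mannose 6-phosphate receptor, rose by 0.77 on the log2 scale. The difference of the responses was called for Fcgrt, 1 of 15, at -3.64 (SE 0.67, edgeR adjusted p = 0.0357). Fcgrt was at 5.14 and 4.64 CPM in vehicle clone 4, 17.3 and 18.4 CPM in 4OHT clone 4, 11 and 19.6 CPM in vehicle clone 8, and 2.17 and 6.82 CPM in 4OHT clone 8, so that it was low in the 2 groups where Cubn and Amn were low. M6pr, with the highest mean CPM of the list (247), stayed between 217 and 283 CPM. In vehicle, Tfrc (-0.57) was lower and Lrp6 (0.69) was higher in clone 8.

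The general clathrin machinery, which Dab2 connects to, had calls in both directions in clone 8 among 19 genes. In clone 4, 0 passed by edgeR, with 5 at an unadjusted p under 0.05 and 1 called by DESeq2. Dnm2 (0.61) and Ap2b1 (0.58) rose in clone 8, and Picalm (-1.08), Ap2s1 (-0.72) and Clta (-0.43) fell. Picalm, a clathrin assembly protein, was the 1 gene of the list whose response differed between clones (-1.35, SE 0.30, edgeR adjusted p = 0.0491). Ap2m1 had the highest mean CPM of the list, 361. Of 16 genes of endosomal sorting and acidification, 0 passed in either clone by edgeR. At an unadjusted p under 0.05, 8 were higher in clone 4, and 3 were higher and 2 lower in clone 8, while DESeq2 called 4 in clone 4 and 1 in each direction in clone 8. Rab11a, a recycling endosome GTPase, had a difference of -0.94 (SE 0.18, edgeR adjusted p = 0.0384). Vps35 had the highest mean CPM there, 307.

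The lysosome is where Lgmn and Ctsh act. Of 25 other lysosomal genes listed, 24 had enough counts, and by edgeR 0 of them passed in clone 4, where 20 of 24 were above 0 (median 0.35). At an unadjusted p under 0.05, 11 were higher and 1 was lower in clone 4, and DESeq2 called 7. In clone 8, Npc2 (-0.69), Cst3 (-0.68) and Ctsl (-0.85) fell and Psap (0.41) rose. The difference of the responses was called lower in clone 8 for 6 of 24, with Ctsb at -2.01, Ctsz at -1.91 and Hexa at -1.56 the lowest in p. Ctsb, cathepsin B, was at 303 and 283 CPM in vehicle clone 4, 706 and 892 CPM in 4OHT clone 4, 425 and 424 CPM in vehicle clone 8, and 214 and 362 CPM in 4OHT clone 8, with 4OHT clone 4 the highest group and vehicle clone 8 the next, as for Lgmn. It was also lower in clone 8 than in clone 4 with 4OHT (-1.47, SE 0.22, edgeR adjusted p = 0.0481). Ctsl, cathepsin L, had the highest mean CPM of the list, 493. The medians of the difference were -2.36 over the 7 genes, -0.50 over the lysosomal list, -0.22 over the endosomal list, -0.11 over the cargo receptors, -0.09 over the clathrin list and 0.05 over all tested genes.

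**Figure D4:**
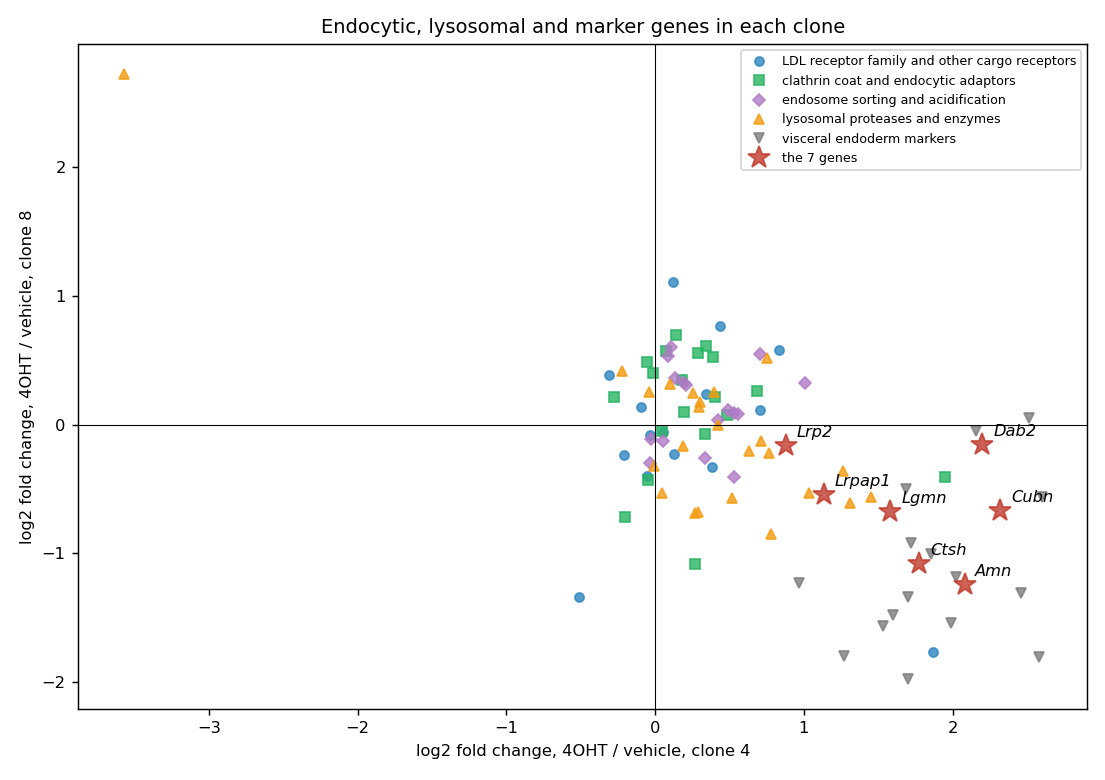
Log2 fold change of 4OHT against vehicle in clone 4 (horizontal axis) and in clone 8 (vertical axis) for the 7 genes and for the tested genes of the 4 pathway lists and of the visceral endoderm markers, 1 point per gene. The 7 genes lie to the right of 0 and below 0, as do most visceral endoderm markers, and the lysosomal gene at the far upper left is Ctsk, at 0.334 CPM or less in every library.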

How the data were processed

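RNA was sequenced from 8 pools of E5.5 epiblasts. The values are raw counts, as deposited by the authors in 1 table with Ensembl genes as rows and the 8 libraries as columns: they are whole numbers and their totals differ, so no normalization was applied. Per the submitters' processing notes, bcl2fastq 2.19.1, STAR 2.5.3a and build mm10 were used. The counting program, annotation release and use of strand are not given in the sources used here. All 8 columns were mapped to a sample by their names. Of 52636 identifiers, 52403 matched a symbol.

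Groups came from the labels. Counts were tested with edgeR 4.0.16 (R 4.3.3): filterByExpr with a minimum count of 10, TMM, glmQLFit and glmQLFTest with the default legacy option, Benjamini-Hochberg adjustment over all 18321 tested genes, and a threshold of 0.05. Calls had been seen with that option on and off before it was kept. The comparison over both clones had clone as an additive term, and the others were contrasts of 1 fit of the 4 groups. CPM used TMM-scaled library sizes, and log2 CPM a prior count of 2. RPKM used the union of GENCODE M21 exons. The scripts were tested on simulated counts. Replicates of each group differed by more than sampling noise.

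The 7 genes, the lists and the tests were chosen with earlier results of these data known. The text names all 7 genes in each comparison. Of each list it names the gene with the highest mean CPM and, by lowest p, at most 3 called genes in each direction. For each of the 7 it names the 3 genes of nearest profile among those above the median log2 CPM of 2.87. Fcgrt and Ctsb levels, Ctsk, and the marker names Utf1, Pou5f1, Ttr, Gata4, Sox17, Elf5 and Apoc2 were added after their values were seen. Called genes that this rule would also name are in part not reported here. No protein sequence is printed. Alternative settings were library totals, RLE size factors, 2 other filters, DESeq2 1.42.0, the replicate number as a block, 1 clone fitted alone, each library left out in turn and, chosen after seeing the data, legacy=FALSE.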

Additional observations from a re-analysis of the deposited data

Results flagged for a closer look

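The response to 4OHT differed between the clones by the interaction test for 5 of the 7 genes, and all 5 were lower in clone 8. Of all tested genes, 1.75% were called in that direction. The difference on the log2 scale (clone 8 minus clone 4) was -2.99 for Cubn, -3.33 for Amn, -1.68 for Lrpap1, -2.26 for Lgmn and -2.86 for Ctsh, with edgeR adjusted p-values of 0.0331, 0.0232, 0.0270, 0.0290 and 0.0232. Each gene was higher with 4OHT in 2 of 2 libraries of clone 4 and lower in 2 of 2 of clone 8.

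Of the 36 groups of 4 libraries examined for a single value far from the other 3, about 1.8 would be marked by chance and 2 were. Markers of decidua, blood and endothelium summed to 37.8 CPM in vehicle clone 4 replicate 1, against 9.09 to 11.8 CPM in the other vehicle libraries. The library total of 4OHT clone 4 replicate 2 was 72497700 counts, against 56.4 to 58.0 M in the other 4OHT libraries. Neither value concerns a level of the 7 genes, and their part in the results was not tested.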

How the results depend on the processing

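Direction was steadier than significance. In all other settings tried (not leaving out a library), 0 of the values of the 7 genes changed sign. Leaving out 1 library turned 6 values: Amn over both clones, 0.41 with all libraries, ran from -0.24 to 1.11 (-0.13 and -0.24 without vehicle clone 4 replicate 1 and 2), Ctsh over both clones from -0.19 to 0.93 (-0.07 and -0.19 without the same libraries), and Dab2 in clone 8 from -1.07 to 0.39 (0.17 when replicate 2 of vehicle clone 8 was left out, and 0.39 for replicate 1 of 4OHT clone 8). None of these passed a test. With 1 library left out, calls of the 7 genes changed in every comparison except over both clones, where 0 were called throughout. Calls over all genes changed too, and a group left with 1 library is assumed to vary like the others. With no filter, 3, 7, 5, 5 and 6 genes were called over both clones, in clone 4, in clone 8, between clones in vehicle and between clones in 4OHT, in place of 0, 0, 2, 3 and 1; over all genes the calls were 1337, 728, 4263, 2901 and 1414 in place of 1, 7, 3041, 1534 and 37. With at least 10 counts in every library, 5 were called in clone 4, 5 between clones in vehicle and 4 between clones in 4OHT (78, 1963 and 150 of all genes). DESeq2 called 7, 4, 5 and 6 in clone 4, in clone 8, and between clones in vehicle and in 4OHT (468, 4308, 3064 and 1015 of all genes). Fitted alone, clone 4 gave 6 and clone 8 gave 0 (197 and 3 of all genes). Between clones in 4OHT, library totals gave 0 and legacy=FALSE gave 6 (19 and 709 of all genes). A higher count of the 7 under such a setting thus stands beside a higher count over all genes. The cause of these shifts was not tested. The difference between clones kept 5 to 7 calls under every setting that used all libraries (the replicate block included), with 411 to 2114 of all genes called.

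With the replicate number as a block, 6 genes were called for the difference between clones, 2 in clone 8, 2 between clones in vehicle, and 0 in clone 4, over both clones and between clones in 4OHT. Calls over all genes, across settings with no library left out (the block included), ran from 3 to 4308 in clone 8. They ran from 1227 to 3064 between clones in vehicle and from 11 to 1414 between clones in 4OHT. In clone 4 they ran from 0 to 728, and over both clones from 0 to 1337. Vehicle and 4OHT libraries of the same number had correlations of their deviations of 0.0947 in clone 4 and -0.0101 in clone 8. Between the clones the correlations were -0.0177 in vehicle and -0.0298 in 4OHT. All were under the cut-off of 0.1 set for pairing. With 2 libraries a group, this cannot decide whether libraries of the same number share an origin. Counts of 1012 to 87137 per library lie behind each value of the 7 genes, and the 2 libraries a group limit the precision of every test.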
